A study of Mus musculus with 12 samples.

Results

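NF-kB is a family of transcription factors that turns on inflammatory and survival genes. Its subunits are held in the cytoplasm by inhibitor proteins. Signals from cytokine and bacterial-product receptors activate a kinase complex that marks the inhibitor for destruction, and the freed dimers enter the nucleus (the canonical route). A slower, non-canonical route processes the Nfkb2 precursor and releases dimers that contain RelB. Several of the genes that NF-kB switches on, among them Nfkbia and Tnfaip3, encode proteins that shut it off again. In fatty liver disease the pathway is studied mainly in Kupffer cells and other macrophages, in the sinusoidal endothelium, in stellate cells and in hepatocytes.

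Described here in whole mouse liver are 10 genes of this pathway, chosen by name: the subunit genes Nfkb1, Nfkb2, Rela and Relb, the inhibitor genes Nfkbia and Tnfaip3, the cytokine genes Il1b and Tnf, and the adhesion molecule genes Icam1 and Vcam1. They are 10 of 45792 gene identifiers in the deposited tables, of which 22381 were not at 0 throughout. Of the 10, 9 were expressed highly enough to be tested among 12637 genes, and Tnf was not. The 12 RNA sequencing libraries came from livers of female C57BL/6 mice and fell into 4 groups of 3. The group HFHS was kept for 14 weeks on a diet with high fat and high sugar. The groups HFHS_Curcumin and HFHS_Calcitriol received that diet and intravenous liposomes loaded with curcumin, a plant polyphenol, or with calcitriol, the active form of vitamin D, at weeks 12 and 13. The treated livers were collected at 2 weeks from the first of these injections. The labels describe the diet of the group CNT in the same words, and how CNT differed from HFHS is therefore not given. Age is not given, and a group with empty liposomes was not analysed here, so effects of the compound and of the liposome or injection cannot be told apart. The titles do not say that libraries of a group are separate animals, and p-values therefore measure the spread between these samples, which may be technical.

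Values are the authors' log2 expression values. The depth of the libraries is unknown, and the authors' transformation probably shrinks the differences of genes at low levels. A difference is given on the log2 scale as first group minus second group with its standard error (SE) from limma, and "rose" or "fell" is used for an adjusted p under 0.05. HFHS replicates 1 and 3 stood apart on the first principal component of all genes tested, at 32.8 and 28.4, while HFHS replicate 2 was at -3.09 and the other 9 libraries lay between -14.4 and -0.40. Hepatocyte markers were by far the most abundant of the marker lists in every library, and none of the 10 hepatocyte genes was at 0. Because whole tissue was measured, more cells of a type and more RNA per cell cannot be told apart.

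All 10 genes had a value above 0 in every library. Per kilobase of exon, the median level over the 12 libraries was highest for Nfkbia (8.64 on the log2 scale per kb) and Rela (7.76). These 2 genes did not overlap with each other or with any of the other genes over the 12 libraries. Icam1 (6.12), Vcam1 (5.90), Nfkb1 (5.06), Nfkb2 (5.02), Il1b (4.68), Tnfaip3 (3.54) and Relb (3.26) followed, and each of these neighbours in the order overlapped with the next. Tnf was lowest at 1.75, below every library of Relb. The 2 genes highest in level were not the ones that varied most. Vcam1 spanned 2.69-fold between its lowest and highest library, Tnfaip3 2.62-fold, Il1b 2.49-fold and Relb 2.25-fold, against 1.3-fold for Rela and 1.51-fold for Nfkbia. Exon lengths merge all annotated transcripts of a gene, so the levels per kb are approximate.

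The group mean was highest in HFHS for 9 of the 10 genes, the exception being Rela. It was lowest in CNT for 7 genes: Nfkb1, Nfkb2, Relb, Tnfaip3, Il1b, Icam1 and Vcam1. For these 7 genes both treated groups had means between CNT and HFHS. The spread within HFHS was shared by the genes: HFHS replicate 2 was the lowest HFHS library for 10 of 10 genes, which held for 38.7% of all genes tested. HFHS replicates 1 and 3 were both above all other libraries, HFHS replicate 2 included, for Nfkb1, Nfkb2, Relb, Tnfaip3 and Tnf. This pattern was found in 13.9% of all genes tested. Smaller differences of the same kind were seen in the treated groups, where curcumin replicate 1 was highest in its group for 8 of 10 genes (29.4% of all genes tested) and calcitriol replicate 3 for 7 of 10 (34.8%).

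**Figure D1:**
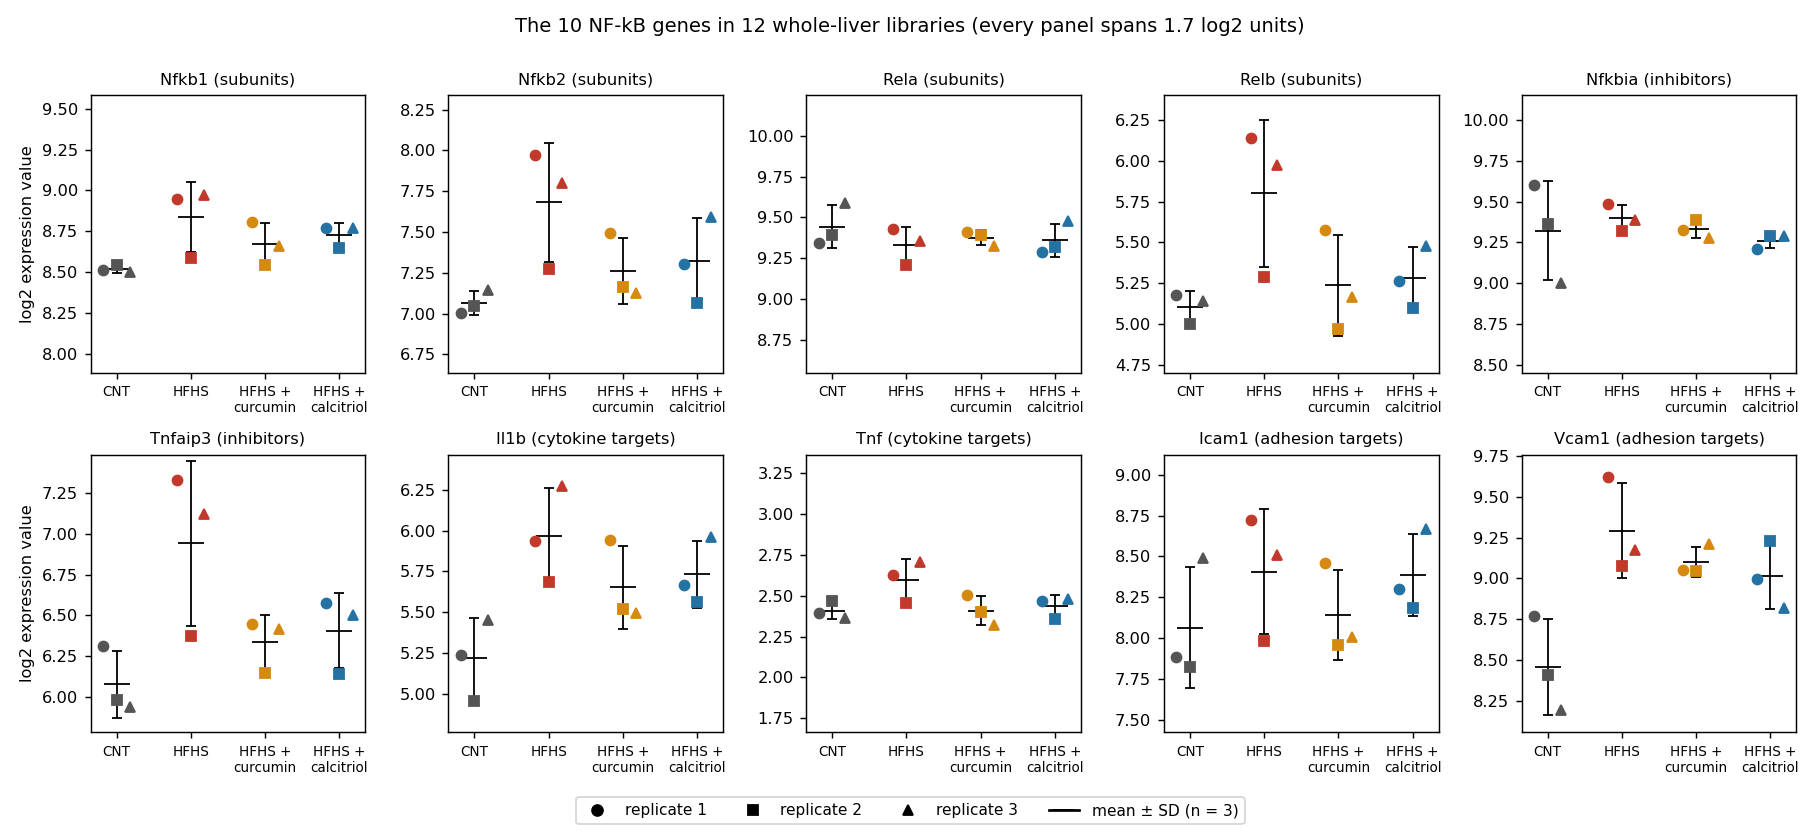
Each panel plots the log2 expression value (vertical axis) of 1 gene in the 12 libraries by group (horizontal axis), with symbols for the replicate number and bars for the mean ± SD (n = 3). HFHS replicate 2 is the lowest HFHS point in all 10 panels. In the panels of Nfkb1, Nfkb2, Relb, Tnfaip3 and Tnf the HFHS points 1 and 3 lie above all other libraries.

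The first comparison sets the RNA levels of these genes in the untreated HFHS livers against those in CNT. Activity of the pathway was not measured. Vcam1, Tnfaip3, Il1b and Nfkb2 rose in HFHS, by 1.78-fold, 1.82-fold, 1.68-fold and 1.53-fold. Relb and Nfkb1 were higher in all 3 HFHS libraries than in all 3 CNT libraries but did not pass the adjusted threshold. Rela, Nfkbia and Icam1 had intervals that included 0. In all, 4 of the 9 tested genes rose and 0 fell in limma, against a background of 6.55% of all genes tested that rose and 11.9% that were called in either direction. At an unadjusted p under 0.05, 6 of the 9 passed, against 31.9% of all genes. Groups did not overlap, with HFHS higher, for 6 of the 10 genes, against 12.7% of all genes tested. The median difference of the 9 genes was 0.62, beside -0.01 for all genes tested, whose interquartile range was -0.14 to 0.16. With only the HFHS and CNT libraries in the fit, 0 of the 9 passed (lowest adjusted p = 0.127), and the count was also 0 without HFHS replicates 1 and 3 together, which leaves 1 HFHS library assumed to vary like the other groups.

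Nfkb2 (ENSMUSG00000025225, GRCm38 chromosome 19, 46304320 to 46312385, plus strand) encodes the precursor at the centre of the non-canonical route. Its promoter is shown because Nfkb2 is 1 of 3 of these genes with a promoter window that holds the kappa-B consensus, the DNA element that NF-kB dimers bind. The 2 stretches below are 5′ to 3′ on the gene's strand, from RefSeq (GRCm38.p6), and capitals mark the matches. Positions are relative to the first of 3 RefSeq starts, at 46304737, which lies downstream of the GENCODE gene start, so both stretches are inside the GENCODE gene. The first, chr19:46304691-46304715, spans positions -46 to -22, and its capitals are overlapping matches on both strands. The second, chr19:46304719-46304736, spans positions -18 to -1.
Nfkb2, first stretch: tcgtcacGGGAATTCCCCccctcgg
Nfkb2, second stretch: gccgaaaGGGGCTTTCCc

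Nfkb2 stood at 7.0, 7.04 and 7.15 in CNT replicates 1 to 3 and at 7.97, 7.27 and 7.80 in HFHS replicates 1 to 3. It was 7.5, 7.17 and 7.13 with curcumin and 7.31, 7.07 and 7.59 with calcitriol. HFHS and CNT did not overlap, and both treated groups reached down to the CNT range. The rise in HFHS was 0.62 ± 0.18 (SE, n = 3 each, 95% interval 0.23 to 1.0, adjusted p = 0.0442). This call was lost without any 1 of the 3 CNT libraries (adjusted p = 0.104, 0.118 and 0.0642 without replicates 1, 2 and 3), without HFHS replicate 1 (0.47, adjusted p = 0.16) and without HFHS replicate 3 (0.56, adjusted p = 0.144). It was also lost with no filter and under quantile normalization (adjusted p = 0.0613 each). Without HFHS replicate 2 the difference was 0.82 (adjusted p = 0.00163). Nfkb2 shares 6.52% of its exon bases with Psd, a gene on the other strand whose value was at most 2.48. It shares 11.6% with the antisense gene AC114539.1, for which the data held no value other than 0. The counting strand is not given, so reads from these genes cannot be told apart.

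Relb (ENSMUSG00000002983, chromosome 7, 19606217 to 19629438, minus strand) encodes the subunit that pairs with the Nfkb2 product. Its values were 5.18, 5.0 and 5.14 in CNT and 6.14, 5.29 and 5.98 in HFHS. With curcumin they were 5.58, 4.97 and 5.16, and with calcitriol 5.27, 5.10 and 5.48. HFHS replicates 1 and 3 were the 2 highest of the 12 libraries, and HFHS replicate 2 lay within the range of both treated groups. The difference between HFHS and CNT was 0.69 ± 0.21 (95% interval 0.24 to 1.15, adjusted p = 0.0503). It was 0.95 (adjusted p = 0.0012) without HFHS replicate 2, 0.53 (0.177) without replicate 1, 0.61 (0.162) without replicate 3 and 0.18 (0.799) without replicates 1 and 3.

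Nfkb1 (ENSMUSG00000028163, chromosome 3, 135584655 to 135691547, minus strand) encodes the precursor of the common DNA-binding partner of the canonical dimer. CNT libraries were nearly identical, at 8.51, 8.54 and 8.5, and HFHS libraries were at 8.95, 8.59 and 8.97. Values with curcumin were 8.81, 8.54 and 8.66, and with calcitriol 8.77, 8.65 and 8.77. HFHS and calcitriol libraries all lay above CNT, and so did curcumin libraries, although 1 of them by a margin within the rounding. The HFHS minus CNT difference was 0.32 ± 0.10 (95% interval 0.10 to 0.54, adjusted p = 0.0549). It was 0.44 (adjusted p = 0.00177) without HFHS replicate 2, 0.26 (0.187) without replicate 1, 0.25 (0.193) without replicate 3 and 0.07 (0.868) without replicates 1 and 3.

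Rela (ENSMUSG00000024927, chromosome 19, 5637483 to 5648130, plus strand) encodes the main activating subunit of the canonical dimer. It had the smallest range of the 10 genes and ran from 9.21 to 9.59. CNT stood at 9.35, 9.39 and 9.59, and HFHS at 9.43, 9.21 and 9.36. The treated libraries lay at 9.41, 9.39 and 9.33 with curcumin and at 9.29, 9.32 and 9.48 with calcitriol. All 4 groups overlapped. The HFHS minus CNT difference was -0.11 ± 0.08 (95% interval -0.29 to 0.07, adjusted p = 0.375).

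The inhibitor genes Nfkbia and Tnfaip3 are both feedback targets of NF-kB, and at least 1 promoter window of each holds the kappa-B consensus. The 130 bases before the RefSeq starts at 55492647 (Nfkbia) and 19015410 (Tnfaip3) are shown because Tnfaip3 rose in HFHS and Nfkbia did not pass the test. One GENCODE transcript of Tnfaip3 begins upstream of this RefSeq start, so the stretch lies before the RefSeq gene but in an intron of that transcript. The Nfkbia stretch is chr12:55492648-55492777 and the Tnfaip3 stretch chr10:19015411-19015540, both on the minus strand, and the sequences are 5′ to 3′ on the gene's strand with matches in capitals.
Nfkbia: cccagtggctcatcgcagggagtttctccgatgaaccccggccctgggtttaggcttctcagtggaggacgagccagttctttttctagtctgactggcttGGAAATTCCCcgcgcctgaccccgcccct
Tnfaip3: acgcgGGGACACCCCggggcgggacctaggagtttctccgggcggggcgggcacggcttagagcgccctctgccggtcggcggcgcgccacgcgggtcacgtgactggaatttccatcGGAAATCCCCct

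RefSeq windows from 250 bases before to 50 bases after a start were given for 7 of the 10 genes, 10 windows in all. The consensus, searched on both strands, was found in 5 of these 10 windows, which belong to Nfkb2, Nfkbia and Tnfaip3, and in 4.51% of all 32851 windows. By gene the count was 3 of 7. The Nfkb2 windows at starts 46305695 and 46305930 overlap and share a match. The genes were chosen for this pathway, and the share was not tested. The other Tnfaip3 window, at a start at 19011963, held none. The search took only the letters GGGRNWYYCC (R is A or G, N any base, W is A or T, Y is C or T). Rela, Il1b, Tnf and Icam1 had no match to these letters in their windows. Near matches were not counted. The Icam1 window holds tggaaattcc, which differs from these letters only at its first base, as does tggaatttcc in the Tnfaip3 stretch. The lack of a match therefore does not show the lack of a kappa-B site. Nfkb1, Relb and Vcam1 had no window in the table. A match describes the sequence only, and binding was not measured.

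Tnfaip3 (ENSMUSG00000019850, chromosome 10, 19000910 to 19015657, minus strand) encodes A20, a ubiquitin-editing enzyme that stops signalling upstream of the kinase complex. It stood at 6.32, 5.98 and 5.94 in CNT and at 7.33, 6.37 and 7.12 in HFHS. Curcumin libraries were at 6.45, 6.15 and 6.42, and calcitriol libraries at 6.58, 6.14 and 6.50. HFHS replicates 1 and 3 were well above all other libraries, while HFHS replicate 2 was only just above the highest CNT library. The rise in HFHS was 0.86 ± 0.22 (95% interval 0.39 to 1.34, adjusted p = 0.0308). It was lost without CNT replicate 2 (0.81, adjusted p = 0.1), CNT replicate 3 (0.79, adjusted p = 0.0654), HFHS replicate 1 (0.67, adjusted p = 0.109) or HFHS replicate 3 (0.77, adjusted p = 0.111), and it was 1.15 (adjusted p = 0.000301) without HFHS replicate 2.

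Nfkbia (ENSMUSG00000021025, chromosome 12, 55489410 to 55492647, minus strand) encodes the classical inhibitor that holds the canonical dimer in the cytoplasm. Its values were 9.60, 9.36 and 9.0 in CNT and 9.48, 9.32 and 9.39 in HFHS. They were 9.32, 9.39 and 9.28 with curcumin and 9.21, 9.29 and 9.29 with calcitriol. The widest spread was in CNT, whose libraries enclosed those of all other groups. The HFHS minus CNT difference was 0.07 ± 0.12 (95% interval -0.18 to 0.33, adjusted p = 0.685).

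Il1b (ENSMUSG00000027398, chromosome 2, 129364570 to 129371139, minus strand) encodes interleukin-1 beta, a cytokine made chiefly by myeloid cells. It stood at 5.24, 4.96 and 5.45 in CNT and at 5.94, 5.69 and 6.27 in HFHS. Curcumin libraries had 5.94, 5.52 and 5.49, and calcitriol libraries 5.67, 5.56 and 5.96. Every HFHS, curcumin and calcitriol library was above every CNT library, and the treated groups overlapped with HFHS. The rise in HFHS over CNT was 0.75 ± 0.18 (95% interval 0.35 to 1.14, adjusted p = 0.0268). Here HFHS replicate 2 was also above CNT. The call was lost without CNT replicate 1 (adjusted p = 0.0627), CNT replicate 2 (adjusted p = 0.1), HFHS replicate 1 (adjusted p = 0.0801) or HFHS replicate 3 (adjusted p = 0.0994), with differences of 0.59 to 0.76.

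Tnf (ENSMUSG00000024401, chromosome 17, 35199381 to 35202007, minus strand) encodes tumour necrosis factor, both a target and a strong activator of the pathway. It was below the filter of 3.32 in all 12 libraries and was not tested. Its values were 2.39, 2.47 and 2.37 in CNT, 2.63, 2.46 and 2.71 in HFHS, 2.5, 2.4 and 2.32 with curcumin, and 2.47, 2.36 and 2.48 with calcitriol. HFHS replicates 1 and 3 were the 2 highest libraries, and HFHS replicate 2 lay within the CNT range.

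Vcam1 (ENSMUSG00000027962, chromosome 3, 116109949 to 116129688, minus strand) encodes an endothelial receptor for circulating leukocytes. It stood at 8.77, 8.41 and 8.19 in CNT and at 9.62, 9.08 and 9.18 in HFHS. Curcumin libraries had 9.05, 9.05 and 9.21, and calcitriol libraries 9.0, 9.23 and 8.82. As for Il1b, all 9 HFHS, curcumin and calcitriol libraries lay above all 3 of CNT, and HFHS replicate 2 was not set apart from the curcumin libraries. The rise in HFHS was 0.84 ± 0.17 (95% interval 0.47 to 1.20, adjusted p = 0.0161), the lowest adjusted p of the 9 tested genes. It was lost without CNT replicate 2 (0.81, adjusted p = 0.0612) or HFHS replicate 1 (0.67, adjusted p = 0.0531).

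Icam1 (ENSMUSG00000037405, chromosome 9, 21015985 to 21028817, plus strand) encodes the other main leukocyte receptor of the endothelium, which hepatocytes and leukocytes can also express. Its values were 7.88, 7.82 and 8.49 in CNT and 8.72, 7.98 and 8.51 in HFHS. They were 8.46, 7.95 and 8.01 with curcumin and 8.30, 8.19 and 8.67 with calcitriol. CNT replicate 3 was close to HFHS replicate 3, and all 4 groups overlapped. The HFHS minus CNT difference was 0.34 ± 0.23 (95% interval -0.16 to 0.84, adjusted p = 0.324). Icam1 shares 11.7% of its exon bases with the antisense gene Gm47079, for which the data held no value other than 0. With the counting strand unstated, reads from the 2 genes cannot be told apart.

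Markers of other cells were measured in the same libraries and moved with several of these genes. The summed level of 13 macrophage markers, as log2, was 12.81 to 13.21 in CNT. It stood at 13.82, 13.34 and 13.16 in HFHS replicates 1 to 3. Of the 12 tested macrophage markers 2 rose, against 6.55% of all genes tested. The sum of 10 stellate cell and fibroblast markers was 12.40 to 12.67 in CNT. It stood at 13.67, 12.69 and 13.55 in HFHS replicates 1 to 3, and 4 of 10 rose, against the same 6.55%. In the stellate list HFHS replicates 1 and 3 were above replicate 2, as they were for all 10 genes described here, while the macrophage sum was lowest in replicate 3. The most abundant markers weigh most in such a sum. The median HFHS minus CNT difference of the tested markers was 0.55 for macrophages and 0.61 for stellate cells and fibroblasts. It was 0.58 for neutrophils and 0.18 for endothelium. The 6 cholangiocyte markers, of which 5 were tested and 0 called, also had replicate 2 lowest in HFHS, at 8.21, 7.10 and 7.67, against 7.13 to 7.43 in CNT. The 13 endothelial markers, of which 0 of 13 were called, overlapped between CNT (12.29 to 12.89) and HFHS (12.51 to 13.01). The 8 neutrophil markers, of which 4 were tested and 0 called, were at 6.80 to 7.27 in CNT and at 7.75, 7.17 and 7.88 in HFHS. Of the 12 lymphocyte markers 8 were tested and 1 rose, against 6.55% of all genes tested. Their sum was 7.15 to 7.35 in CNT and 7.57, 7.33 and 7.77 in HFHS replicates 1 to 3. Of the 10 hepatocyte markers 1 fell, against 5.36% of all genes tested. The hepatocyte sum was 20.81 to 21.11 in CNT and 20.60, 20.92 and 20.60 in HFHS replicates 1 to 3. Replicates 1 and 3 lay below all CNT libraries, and replicate 2 lay within the CNT range. HFHS replicate 3 also had a summed adipocyte marker level of 10.24, against at most 7.41 in the other 11 libraries. Replicate 2 was the lowest HFHS library for the neutrophil, lymphocyte and adipocyte sums as well. It was also lowest, by little, for the endothelial sum (12.53, 12.51 and 13.01). It was not the lowest for the macrophage, hepatocyte and erythroid sums. No marker of these lists was at 0 in all libraries. The part of these cells in the differences of the 10 genes was not tested.

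**Figure D2:**
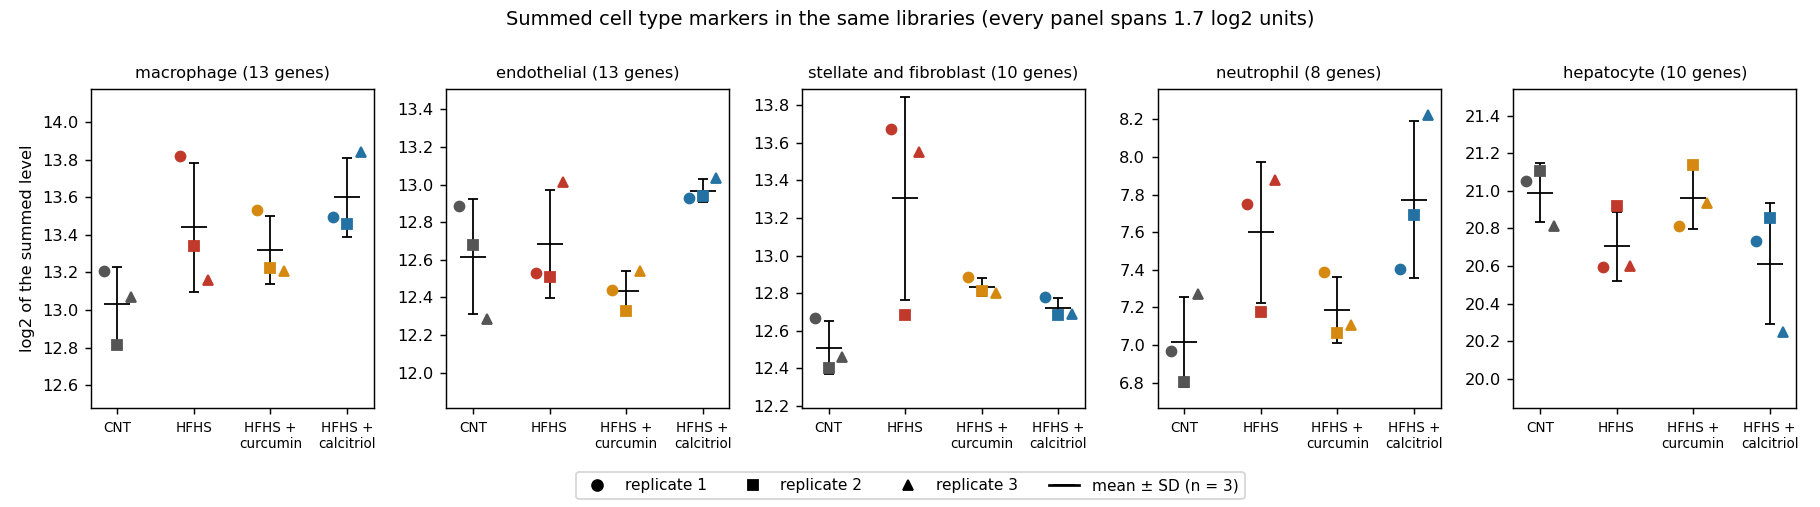
Each panel plots the log2 of the summed level of a marker list (vertical axis) in the 12 libraries by group (horizontal axis), with symbols for the replicate number and bars for the mean ± SD (n = 3). The stellate and fibroblast sum is 13.67 and 13.55 in HFHS replicates 1 and 3 and 12.69 in replicate 2, while the endothelial sums of CNT and HFHS overlap.

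The curcumin comparison asks how the RNA levels of these genes differed in curcumin-treated HFHS livers from untreated ones. None of the 9 tested genes was called. All except Rela had a difference below 0, which was also the case for 50.8% of all genes tested, and all 10 genes overlapped between the groups, where 11.9% of all genes lay higher and 11.6% lower without overlap. Relb (-0.56 ± 0.21, 95% interval -1.02 to -0.11, adjusted p = 0.136), Tnfaip3 (-0.61 ± 0.22, -1.08 to -0.13, adjusted p = 0.129) and Nfkb2 (-0.42 ± 0.18, -0.81 to -0.03, adjusted p = 0.173) passed an unadjusted p under 0.05. The count at that level was 3 of 9, against 24.7% of all genes. By adjusted p 0 of 9 passed in limma, and the background was low as well, at 0.301% of all genes tested.

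Il1b had a difference of -0.31 ± 0.18 (95% interval -0.71 to 0.08), Icam1 -0.26 ± 0.23 (-0.77 to 0.24), Vcam1 -0.19 ± 0.17 (-0.55 to 0.17) and Nfkb1 -0.17 ± 0.10 (-0.38 to 0.05). Nfkbia (-0.07, interval -0.32 to 0.19) and Rela (0.05, interval -0.14 to 0.23) had the estimates nearest to 0. These intervals still allow a fall of over 0.5 for Il1b, Icam1 and Vcam1. With the replicate number of the titles as a block, 242 genes were called in place of 38, and 0 of the 9 were among them (lowest adjusted p = 0.0534).

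These counts turned on HFHS replicate 2. Without it 4 of the 9 genes were called lower with curcumin, in a setting that called 25.4% of all genes in either direction: Tnfaip3 (-0.89, adjusted p = 0.00195), Relb (-0.82, adjusted p = 0.00385), Nfkb2 (-0.63, adjusted p = 0.00975) and Nfkb1 (-0.29, adjusted p = 0.021). Without HFHS replicates 1 and 3, the differences of Nfkb1, Nfkbia, Icam1 and Vcam1 turned to above 0, at 0.0082 to 0.16. That of Rela stayed above 0, at 0.17.

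The calcitriol comparison asks the same of the vitamin D hormone, and shares its HFHS libraries with the curcumin comparison. By adjusted p 0 of 9 genes were called in limma, against 2.21% of all genes tested. Differences below 0 were found for 8 of 9, against 50.5% of all genes. Relb (-0.52 ± 0.21, 95% interval -0.97 to -0.07, adjusted p = 0.18) and Tnfaip3 (-0.53 ± 0.22, -1.01 to -0.06, adjusted p = 0.184) passed an unadjusted p under 0.05, so 2 of 9 did, against 21.3% of all genes. Nfkb2 had -0.36 ± 0.18 (-0.75 to 0.02), Vcam1 -0.28 ± 0.17 (-0.64 to 0.08), Il1b -0.23 ± 0.18 (-0.63 to 0.16) and Icam1 -0.02 ± 0.23 (-0.52 to 0.48).

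Nfkbia was the only one of the 10 genes whose calcitriol libraries all lay below all HFHS libraries, with a difference of -0.14 ± 0.12 (adjusted p = 0.541), and such a lower position was found for 11.8% of all genes tested. Without HFHS replicate 2, Tnfaip3 (-0.82, adjusted p = 0.00381), Relb (-0.77, adjusted p = 0.00666) and Nfkb2 (-0.57, adjusted p = 0.0205) were called lower, in a setting that called 17.4% of all genes in either direction. Without HFHS replicates 1 and 3, the differences of Nfkb1, Nfkb2, Tnfaip3, Il1b and Icam1 turned to above 0, at 0.034 to 0.40. That of Rela stayed above 0, at 0.15.

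**Figure D3:**
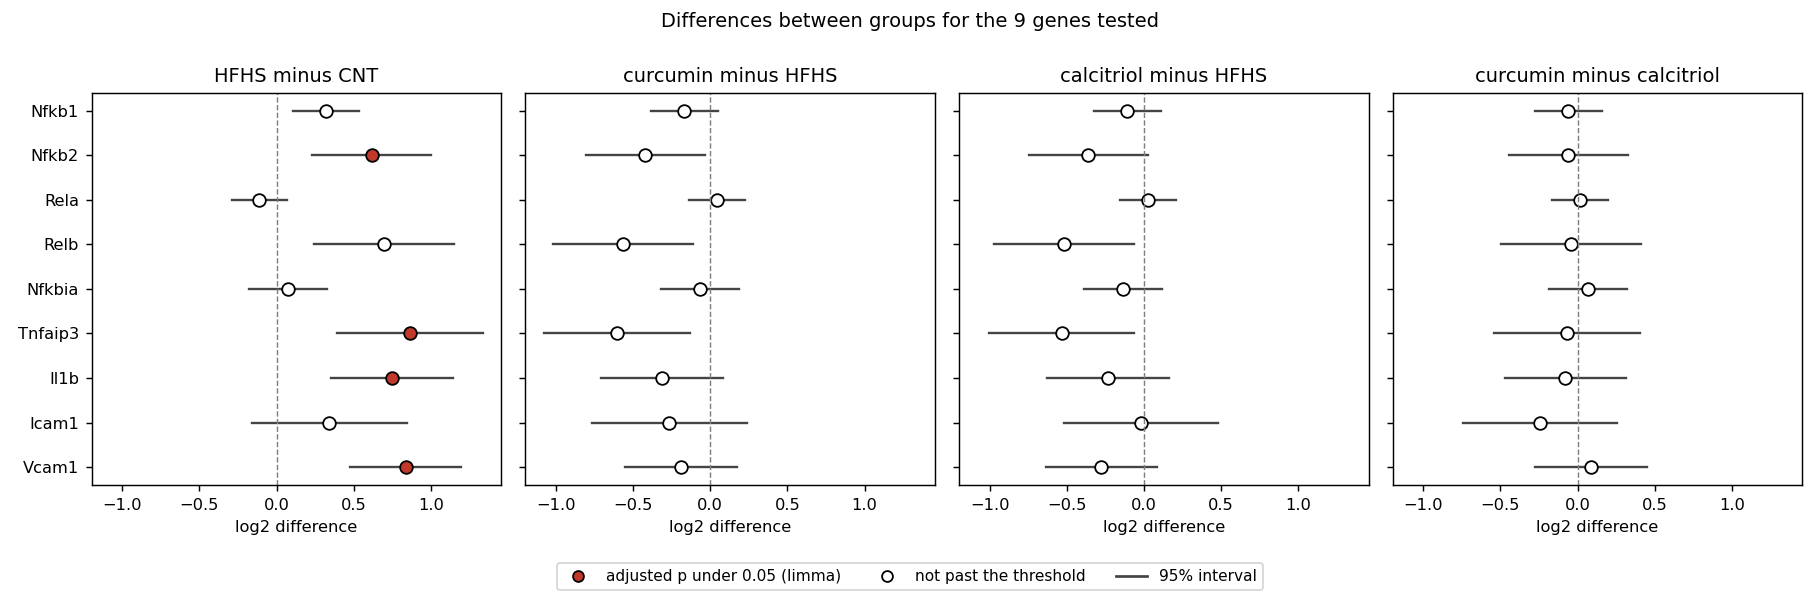
Each panel plots, for the 9 tested genes (vertical axis), the log2 difference between 2 groups (horizontal axis) with its 95% interval, and filled points mark an adjusted p under 0.05 in limma. Nfkb2, Tnfaip3, Il1b and Vcam1 are filled for HFHS minus CNT, no point is filled in the other 3 panels, and the curcumin minus calcitriol intervals all include 0.

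Set against each other, the treatments differed in 0 of 9 genes and in 0.0% of all genes tested by adjusted p, with 0 of 9 and 14.8% at an unadjusted p under 0.05 in limma. With only these 2 groups in the fit 214 of all genes were called, and 577 with library weights, with 0 of the 9 among them in both. The differences ran from -0.24 for Icam1 (95% interval -0.75 to 0.26) to 0.09 for Vcam1 (-0.27 to 0.45). For Tnfaip3 the interval was -0.54 to 0.40, for Relb -0.50 to 0.41, for Nfkb2 -0.45 to 0.33 and for Il1b -0.47 to 0.32. Differences of 0.3 in either direction lie within the intervals of these last 4 genes, so the values do not show that the treatments gave the same levels.

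Against CNT, which both treatments share, the subunit genes and Tnfaip3 had smaller estimates than Il1b and Vcam1, a contrast between genes that was not tested. Vcam1 was higher by 0.65 ± 0.17 with curcumin (95% interval 0.28 to 1.01, adjusted p = 0.0552) and by 0.56 ± 0.17 with calcitriol (0.20 to 0.92, adjusted p = 0.0783). Il1b was higher by 0.44 ± 0.18 (0.04 to 0.83, adjusted p = 0.225) and 0.51 ± 0.18 (0.12 to 0.91, adjusted p = 0.12). None of these passed, and of the 9 tested genes 0 were called in either comparison in limma, against backgrounds of 3.51% for curcumin and 4.04% for calcitriol. At an unadjusted p under 0.05 Il1b and Vcam1 passed in both, beside 18.6% and 23.4% of all genes. Nfkb1, Il1b and Vcam1 did not overlap with CNT in either treated group, 3 of 10 genes each time, against 12.9% and 14.9% of all genes. For Nfkb1 with curcumin the margin was minimal, at 8.5407 against 8.5403 in CNT (adjusted p = 0.452 in limma). For Nfkb2, Relb and Tnfaip3 the differences from CNT were 0.20, 0.13 and 0.26 with curcumin and 0.26, 0.18 and 0.33 with calcitriol, all with intervals that included 0.

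Marker levels in the treated groups stood beside these values as follows. The stellate and fibroblast sum was 12.80 to 12.89 with curcumin and 12.68 to 12.78 with calcitriol. These were near HFHS replicate 2 and far below HFHS replicates 1 and 3. Of its 10 genes 1 fell with calcitriol against HFHS, where 1.23% of all genes tested fell. The macrophage sum was 13.21 to 13.53 with curcumin and 13.46 to 13.84 with calcitriol, and 0 of 12 markers were called in either comparison with HFHS. Macrophage sums in both treated groups lay above those of CNT (12.81 to 13.21), with curcumin by a margin within the rounding. Against CNT 3 of 12 markers rose with calcitriol and 0 with curcumin, beside 4.04% and 3.51% of all genes called in either direction. The neutrophil sum was 7.41 to 8.22 with calcitriol and 7.06 to 7.39 with curcumin, against 6.80 to 7.27 in CNT. The endothelial sum was 12.33 to 12.54 with curcumin and 12.93 to 13.04 with calcitriol. Of 13 endothelial markers 1 rose with calcitriol against HFHS, where 0.973% of all genes tested rose, and 0 were called with curcumin. Erythroid markers, which report blood in the tissue, were at 13.39 to 13.52 with curcumin and 13.44 to 13.74 with calcitriol. They were at 12.15 to 13.04 in HFHS, without overlap. Of 6 tested erythroid markers 1 rose with calcitriol and 0 with curcumin against HFHS. Against CNT 1 of 6 rose in each treated group, beside 3.51% (curcumin) and 4.04% (calcitriol) of all genes called in either direction. The part of these cells in the treated groups' values was not tested.

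The rest of the pathway was read through 3 gene lists. Upstream signalling (receptors, adaptors and kinases, 24 of 24 tested) moved little between HFHS and CNT, with a median difference of -0.03, beside -0.01 for all genes tested. There 3 genes rose and 1 fell, against 6.55% of all genes tested that rose and 5.36% that fell. Traf3, an adaptor that restrains the non-canonical route, rose by 0.41 ± 0.12 (adjusted p = 0.0397), and the receptor genes Tnfrsf11a (RANK) and Cd40 rose by 0.34 ± 0.10 (adjusted p = 0.0462) and 0.26 ± 0.07 (adjusted p = 0.0444). Ripk1, the kinase recruited to the tumour necrosis factor receptor, fell by 0.28 on the log2 scale (SE 0.07, adjusted p = 0.033). The Cd40 and Tnfrsf11a calls were lost under quantile normalization (0.13, adjusted p = 0.296, and 0.17, adjusted p = 0.211) and under median centring (adjusted p = 0.0593 and 0.0549). The list had 0 calls without CNT replicate 1, CNT replicate 2, HFHS replicate 1 or HFHS replicate 3, and 7 without HFHS replicate 2.

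Among the other subunits and inhibitors, 1 of 13 tested genes rose in HFHS, a share near the 6.55% of all genes tested, and the median difference was 0.00. The gene was Tnip1, whose product partners with A20, with values of 7.31, 7.26 and 7.26 in CNT and 7.99, 7.48 and 7.94 in HFHS. The rise was 0.52 ± 0.12 (adjusted p = 0.0225). Tnip1 and Tnfaip3 encode partner proteins, and both stood highest in HFHS replicates 1 and 3. The Tnip1 call was lost without CNT replicate 1 (adjusted p = 0.0517), CNT replicate 2 (0.0758), HFHS replicate 1 (0.0871) or HFHS replicate 3 (0.0865).

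Other NF-kB targets had the largest shift between HFHS and CNT of the 3 lists, with a median of 0.32 beside -0.01 for all genes tested. Of its 23 tested genes 6 rose and 0 fell, against 6.55% and 5.36% of all genes. A further 7 genes of the list, among them Il6, Cxcl2 and Nos2, were too low to be tested. Ccl5, a chemokine for T cells and monocytes, stood at 5.22, 4.78 and 4.88 in CNT and at 6.22, 5.53 and 6.50 in HFHS, a rise of 1.12 ± 0.20 (adjusted p = 0.0121). Cd83, a surface protein of activated antigen-presenting cells, was at 5.23, 5.31 and 5.10 in CNT and at 6.16, 5.83 and 6.15 in HFHS (0.83 ± 0.14, adjusted p = 0.0113). For both chemokine and surface marker all HFHS libraries lay above all CNT libraries, replicate 2 included.

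Ccl2, the main monocyte attractant, and Cxcl10, an interferon-induced chemokine, rose by 0.63 ± 0.16 (adjusted p = 0.0327) and 0.64 ± 0.17 (adjusted p = 0.033). Traf1 (0.53 ± 0.15, adjusted p = 0.0401) and Gadd45b (0.50 ± 0.15, adjusted p = 0.0477) complete the 6 and were named after their values were seen. In place of 6 calls, the target list had 12 without HFHS replicate 2, and 2 when HFHS replicate 1 or HFHS replicate 3 was dropped. It had 1 without CNT replicate 2, 4 without CNT replicate 1 and 3 under quantile normalization. Cd83 passed in 13 and Ccl5 in 12 of 15 other settings. With only the HFHS and CNT libraries in the fit, 0 genes passed in each of the 3 lists.

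With curcumin 0 of 24, 0 of 13 and 0 of 23 genes of the 3 lists were called against HFHS in limma. In the target list 22 of 23 differences were below 0, against 50.8% of all genes tested, with a median of -0.26. An unadjusted p under 0.05 was reached by 11 of the 23, against 24.7% of all genes, and the lowest adjusted p was 0.0688. The upstream and inhibitor lists had medians of 0.01 and 0.02, with 6 of 24 upstream genes at an unadjusted p under 0.05, a share like that of all genes. Without HFHS replicate 2, 11 of the 23 targets were called, and without HFHS replicates 1 and 3 the count was 0. With the replicate block 1 of 23 targets and 1 of 13 inhibitor genes were called.

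With calcitriol 3 of the 23 targets fell against HFHS, where 1.23% of all genes tested fell. Ccl5 fell by 0.99 on the log2 scale (SE 0.20, adjusted p = 0.0365), with calcitriol libraries at 5.18, 5.02 and 5.09. Cxcl10 fell by 0.86 (SE 0.17, adjusted p = 0.0314), from 6.67, 6.11 and 6.64 in HFHS to 5.91, 5.5 and 5.42. Cd83 fell by 0.69 (SE 0.14, adjusted p = 0.0372), from HFHS values given above to 5.69, 5.11 and 5.27. In each case all calcitriol libraries were below all HFHS libraries, replicate 2 included, and calcitriol libraries overlapped with CNT. The median of the target list was -0.10, with 16 of 23 differences below 0, beside -0.002 and 50.5% for all genes tested. Curcumin libraries had 5.23, 5.18 and 5.29 for Ccl5, of which replicates 1 and 3 were just above the highest CNT library, and the direct comparison of the treatments gave 0 calls in any list.

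The 3 calls in the calcitriol targets became 0 without HFHS replicate 1, HFHS replicate 3, calcitriol replicate 2 or calcitriol replicate 3, 2 without calcitriol replicate 1, and 7 without HFHS replicate 2. With only the calcitriol and HFHS libraries in the fit 0 genes of the 3 lists passed. Upstream, Ripk1 rose by 0.34 ± 0.07 (adjusted p = 0.0388) and Tab2, an adaptor of the TAK1 kinase, by 0.30 ± 0.07 (adjusted p = 0.0418), with a list median of 0.11 and a background of 0.973% of all genes tested that rose. Both upstream calls were lost without HFHS replicate 1 (adjusted p = 0.107 and 0.085), HFHS replicate 3 (0.111 and 0.121) or any 1 calcitriol library (0.0621 to 0.16). They were also lost with no filter (0.0557 and 0.0755), with no trend and no robust estimation (0.0504 and 0.0524) and with the replicate block (0.0511 and 0.0527). Against CNT, 1 of 23 targets fell in each treated group, a share near the backgrounds of 3.51% and 4.04% called in either direction: Cflar, an inhibitor of caspase activation, with curcumin (-0.41 ± 0.09, adjusted p = 0.0318) and Bcl2l1, which encodes an anti-apoptotic protein, with calcitriol (-0.41 ± 0.09, adjusted p = 0.0316). The Cflar call was lost without every single library of its 2 groups except CNT replicate 3 (0.0589 to 0.129), and so was the Bcl2l1 call (0.0616 to 0.115).

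**Figure D4:**
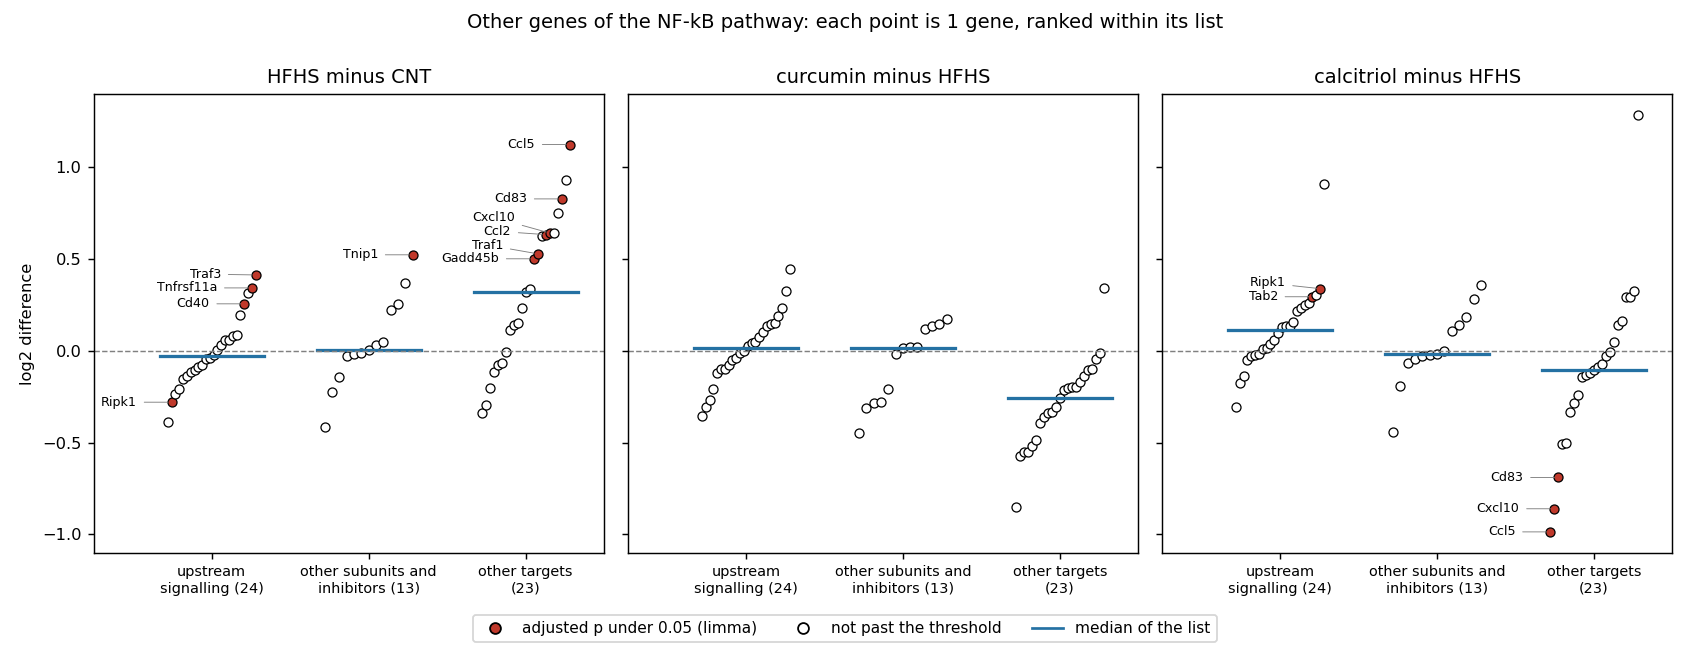
Each point is the log2 difference (vertical axis) of 1 gene, ranked within its list (horizontal axis), filled where the adjusted p was under 0.05 in limma, and the bars are list medians. The target list has a median of 0.32 for HFHS minus CNT with 6 genes filled, -0.26 for curcumin minus HFHS with 0 filled, and -0.10 for calcitriol minus HFHS with Ccl5, Cxcl10 and Cd83 filled.

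The 4 called genes differed in the company they kept over the 12 libraries. Likeness was the mean absolute difference (log2) between 2 profiles after each gene's mean was subtracted, and a smaller value is a closer profile. The closest to Nfkb2 were Tlr2 (0.0653), a receptor for bacterial lipoproteins, Adap1 (0.0667) and Rac2 (0.0759), a GTPase of blood cells, and Relb stood 11th of all genes tested (0.088). The closest to Tnfaip3 were Ptgfrn (0.0803), Arhgap25 (0.0887) and the collagen gene Col5a1 (0.0887), with Relb 29th (0.118). The closest to Il1b were Pld4 (0.102), Laptm5 (0.103) and Spi1 (0.107), which encodes a transcription factor of myeloid cells, and Nfkb2 was 29th (0.136). The closest to Vcam1 were Enc1 (0.119), Neu3 (0.137) and Tmem86a (0.139), and no other gene of the 10 came nearer than Nfkb1 at 1051st (0.234). The mean absolute deviation of the genes themselves was 0.255 for Nfkb2, 0.295 for Tnfaip3, 0.270 for Il1b and 0.279 for Vcam1. These likenesses are over 12 libraries that share the same 2 high HFHS samples and are a description without a test.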

How the data were processed

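RNA was sequenced from whole livers in 12 libraries (4 groups of 3, grouped by title). The authors deposited 1 table of log2 values per library. The submitters' processing notes name STAR 2.4.0d, DESeq2 1.8.1 and GRCm38 with no roles, and the transformation, counting strand and depth are not given in the sources used here. No value was rescaled. Symbols and coordinates came from GENCODE M21 (GRCm38), and promoter sequences came from RefSeq (GRCm38.p6).

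Genes at or above log2 of 10 (3.32) in at least 3 libraries were tested, 12637 in all. As the files held log2 values and no counts, limma 3.58.1 in R 4.3.3 was used: 4 group means over 12 libraries, empirical Bayes with trend and robust estimation, two-sided, Benjamini-Hochberg over all genes tested, threshold 0.05. The fit was tested on simulated data. The 10 genes, the pathway and marker lists and the alternatives were chosen with earlier results of these data known. Named are the 10 genes, up to 4 called genes per list and comparison (smallest adjusted p), and the 3 closest profiles of each called gene of the 10.

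Titles carry replicate numbers. Same-numbered libraries deviated together for curcumin and HFHS (r = 0.16, 0.321 and 0.162 over genes) and for calcitriol and CNT (0.205, 0.253 and 0.372). The main fit held no replicate block. The block was an alternative only, fitted over all libraries and applied to every comparison. Alternatives were the filter, scaling, limma options, library weights, the block, the groups in the fit, and libraries left out.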

Additional observations from a re-analysis of the deposited data

How the results depend on the processing

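Counts of called genes changed with several settings. For HFHS against CNT, 7 of the 10 genes (4790 of all genes) were called with library weights, 0 (13) when the fit held these 2 groups alone, and 0 (68) without HFHS replicates 1 and 3. At an unadjusted p under 0.05 those last 2 settings gave 6 and 1 of the 10 genes. Leaving out 1 library gave 0 to 6 of the 10 genes and 135 to 3717 of all genes. For curcumin against HFHS all-gene counts were 74 with no filter, 122 with a filter on a mean of 4, 168 under quantile normalization, 3420 with weights (3 of the 10), and 0 with only the 2 groups or without HFHS replicates 1 and 3 (2467 and 743 at an unadjusted p under 0.05). Leaving out 1 library gave 0 to 3207 (0 to 4 of the 10). For calcitriol against HFHS they were 430 under quantile normalization, 2725 with weights (3 of the 10), 0 with only the 2 groups (2310 unadjusted), 4 without HFHS replicates 1 and 3, and 4 to 2194 (0 to 3 of the 10) with 1 library left out. Curcumin against calcitriol gave 577 with weights, 214 with only the 2 groups and 0 whichever library was left out. Curcumin against CNT gave 2660 with weights (2 of the 10), 1 of the 10 with only the 2 groups, and 94 to 949 (0 to 1 of the 10) with 1 library left out. Calcitriol against CNT gave 328 with no filter, 3120 with weights (2 of the 10) and 73 to 609 (0 of the 10) with 1 library left out.

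With the replicate block, 242 genes and 0 of the 10 were called for curcumin against HFHS. For HFHS against CNT the r of same-numbered libraries was 0.069, 0.185 and 0.0035. There the block called 6 of the 10 genes, adding Nfkb1 and Relb, and 1862 of all genes. It called 0 of the 10 in the other 4 comparisons. With no filter Tnf had an adjusted p of 0.127 for HFHS against CNT.

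Some directions turned. Without HFHS replicates 1 and 3, Icam1 was -0.083 for HFHS against CNT. In that setting curcumin against HFHS gave 0.08 for Nfkb1, 0.0082 for Nfkbia, 0.16 for Icam1 and 0.025 for Vcam1, and calcitriol against HFHS gave 0.14 for Nfkb1, 0.049 for Nfkb2, 0.034 for Tnfaip3, 0.046 for Il1b and 0.40 for Icam1. With weights Rela was -0.023 for calcitriol against HFHS, Nfkbia -0.0602 for curcumin against CNT, and for curcumin against calcitriol Nfkb2 was 0.083, Relb 0.10, Tnfaip3 0.033 and Il1b 0.053. With 1 library left out, ranges that crossed 0 were -0.085 to 0.21 for Nfkbia in HFHS against CNT and -0.016 to 0.094 for Rela in curcumin against HFHS. In calcitriol against HFHS they were -0.23 to 0.14 for Icam1 and -0.034 to 0.077 for Rela. In curcumin against calcitriol they were -0.13 to 0.0041 for Nfkb1, -0.19 to 0.076 for Nfkb2, -0.0198 to 0.075 for Rela, -0.22 to 0.089 for Relb, -0.20 to 0.024 for Tnfaip3, -0.23 to 0.037 for Il1b and -0.011 to 0.19 for Vcam1. In curcumin against CNT they were -0.082 to 0.29 for Icam1, -0.11 to 0.0086 for Rela, -0.15 to 0.15 for Nfkbia and -0.0399 to 0.26 for Relb, and in calcitriol against CNT -0.22 to 0.079 for Nfkbia. The cause was not tested. Depth was unknown, so counting error cannot be given.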
